A study of Mus musculus with 24 samples.

Results

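The comparison described here set 4 libraries with time code 15 against 4 with time code 05, all with the code E4, out of 24 libraries of polyadenylated mouse brain RNA. Members were chosen by the library name: E4-15 1 to 4 and E4-05 1 to 4. The labels give the tissue as brain and spell out neither code, and no strain, age, sex, treatment or allele is given. The series title concerns ApoE4, but the labels do not say that E4 names that allele. The titles name the months May and June for the E4-15 libraries and January and February for the E4-05 libraries, so time code, titled month and position in the count table cannot be told apart. The titles call the libraries biological replicates. No label ties them to separate animals, and p-values therefore measure the spread between these libraries, which may be technical.

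Total counts ran from 37.4 M to 49.7 M (M, mega) in the 8 libraries. The libraries differed in brain region across the labelled groups. Gabra6, a GABA receptor gene typical of cerebellar granule cells, stood at 364 to 533 CPM (counts per M counts of the library, after TMM scaling) in E4-15 1, E4-15 4 and E4-05 3. It was at 0.0984 to 1.78 CPM in the other 5 libraries. Drd1, the striatal dopamine receptor, went the other way, with 1.04 to 1.94 CPM in these 3 and 24.1 to 83.1 CPM in the other 5. The 3 libraries are called hindbrain-rich below, and the fits carried a term for them unless stated otherwise, which lowered the typical coefficient of variation between libraries to 19.7%, against 38.9% without it. In bulk tissue, fewer cells of a type and less RNA per cell cannot be told apart.

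Zfp36, the gene named for this comparison, encodes tristetraprolin, a protein that binds AU-rich elements in messenger RNA and recruits the deadenylation machinery, which shortens the life of cytokine and growth factor transcripts. It is itself an early-response gene: such genes are transcribed within minutes of a stimulus from factors already present in the cell, and their messages decay quickly. In brain they respond to neuronal firing and, in vessels and glia, to blood flow, stress hormones and inflammation. The clock genes, also described below, form a daily feedback loop in which CLOCK and BMAL1 bind E-boxes and drive their own repressors.

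The promoters of 3 early-response genes and of the clock gene Ciart are shown because these genes recur in the results. Each is the stretch of 250 bases before the gene's start in RefSeq on GRCm38.p6, 5′ to 3′ on the gene's strand, a build other than the one used for counting. Zfp36 lies at chr7:28379229-28379478 on the minus strand, Klf2 at chr8:72318812-72319061 on the plus strand, Apold1 at chr6:134981751-134982000 on the plus strand and Ciart at chr3:95882229-95882478 on the minus strand. Capitals mark matches on either strand to the E-box CACGTG, the cyclic AMP response element TGACGTCA, the CArG box bound by serum response factor, or TATAAA.
Zfp36: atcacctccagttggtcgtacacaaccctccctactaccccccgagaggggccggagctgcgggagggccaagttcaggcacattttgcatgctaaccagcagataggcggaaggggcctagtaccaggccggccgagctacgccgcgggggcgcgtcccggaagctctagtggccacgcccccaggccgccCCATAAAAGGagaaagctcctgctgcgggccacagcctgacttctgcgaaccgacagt
Klf2: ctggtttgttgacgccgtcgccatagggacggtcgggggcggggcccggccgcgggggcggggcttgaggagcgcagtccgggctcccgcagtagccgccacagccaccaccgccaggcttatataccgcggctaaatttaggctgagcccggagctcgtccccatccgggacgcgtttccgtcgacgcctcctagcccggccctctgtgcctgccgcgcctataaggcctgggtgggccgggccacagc
Apold1: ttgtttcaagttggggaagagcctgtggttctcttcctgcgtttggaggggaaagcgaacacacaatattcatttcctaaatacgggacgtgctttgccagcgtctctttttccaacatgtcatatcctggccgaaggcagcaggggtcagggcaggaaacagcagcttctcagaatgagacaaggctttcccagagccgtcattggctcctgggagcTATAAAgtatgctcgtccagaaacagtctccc
Ciart: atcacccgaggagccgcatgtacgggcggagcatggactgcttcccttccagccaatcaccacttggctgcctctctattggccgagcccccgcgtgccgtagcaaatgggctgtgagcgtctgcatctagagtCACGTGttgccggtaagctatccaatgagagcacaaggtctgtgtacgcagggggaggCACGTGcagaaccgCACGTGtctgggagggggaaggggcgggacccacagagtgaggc
No 2 matches overlapped. Zfp36 held 1 CArG box, Apold1 held 1 TATAAA and Ciart held 3 copies of CACGTG, while Klf2 held none of the 4 motifs. Over all 32851 promoters listed, CACGTG was in 6.02%, TGACGTCA in 1.55%, the CArG box in 1.47% and TATAAA in 12.4%.

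Across all genes, no difference between E4-15 and E4-05 passed the test. With edgeR's quasi-likelihood test, 0 of 18451 genes (0%) had a Benjamini-Hochberg adjusted p under 0.05, and the smallest adjusted p was 0.847. At an unadjusted p under 0.05 there were 405 genes higher in E4-15 (2.2%) and 451 lower (2.44%), 856 in all (4.64%), against 923 if the tests were exact. Fold changes lay above 0 for 49.5% of genes and below 0 for 50.5%. limma-voom called 0 genes too, and 858 had an unadjusted p under 0.05 (4.65%). DESeq2 called 13 genes (0.0705%), 4 higher (0.0217%) and 9 lower (0.0488%) in E4-15. Every gene named below had an edgeR adjusted p of 0.847 or more, so the values that follow describe these 8 libraries. The 4 genes higher by DESeq2 were Ciart, Klf2, Gm2026 and TrnH. The 9 lower were Slc18a2, Lmx1b, Tph2, Hba-a2, Hbb-bt, Lcn2, Tent5c, Pdxk and 9030025P20Rik. Tph2 and 9030025P20Rik fall outside the rule by which genes were named and were chosen after their values were seen.

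**Figure D1:**
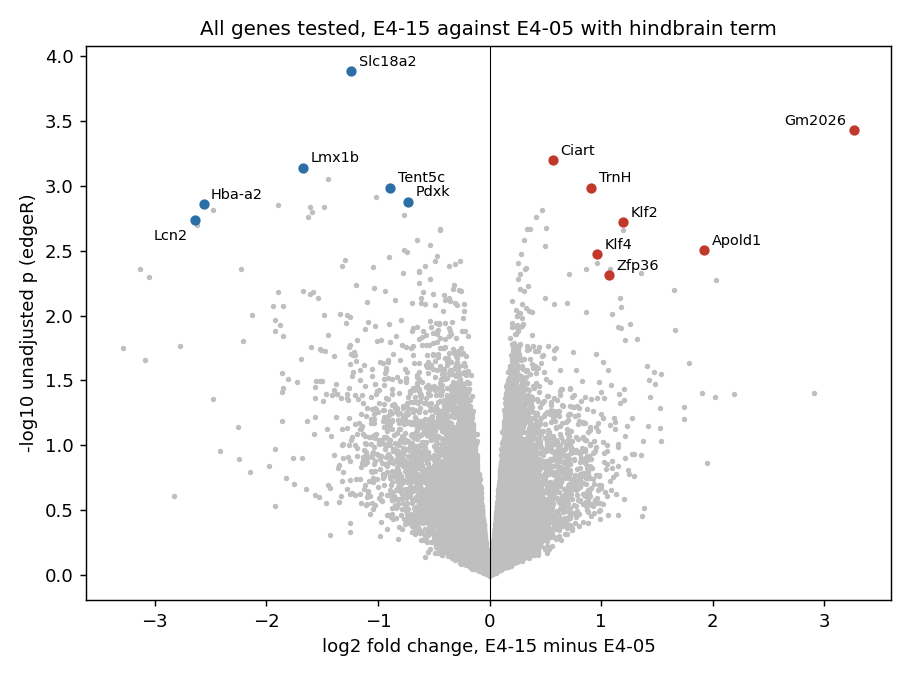
Log2 fold change of E4-15 minus E4-05 (horizontal) against the -log10 unadjusted p of edgeR's quasi-likelihood test (vertical), 1 point for each of 18451 genes; 13 genes are named, red above 0 and blue below. Slc18a2 has the smallest p, at a fold change of -1.24, and no gene passed adjustment.

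Early-response genes were mostly on the higher side in E4-15. Of 50 listed, all tested, 40 had a fold change above 0 and 10 below, beside 49.5% of all genes above 0, and 10 were higher at an unadjusted p under 0.05, beside 2.2% of all genes. None of the 50 was lower at that threshold. Their median log2 fold change was 0.32, beside -0.0023 over all genes. The list holds Zfp36, the gene named for the comparison, and was chosen with earlier results of these data known. Its counts and median therefore only describe these libraries. The median depended on single libraries: it was 0.13 without E4-15 2, 0.18 without E4-05 4 and 0.48 without E4-05 2, which gave 15 higher. Over all genes, the fit without E4-05 2 had 2204 at an unadjusted p under 0.05 in either direction, against 856 in the main fit. Without the hindbrain term the median was 0.16, with 6 higher, and 344 of all genes were at that threshold.

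Zfp36 was at 7.53, 12.6, 16.4 and 20.1 CPM in E4-15 1 to 4, against 5.68, 5.68, 8.03 and 7.09 CPM in E4-05 1 to 4. E4-15 2, 3 and 4 lay above all 4 E4-05 libraries, and E4-15 1 lay within their range. The log2 fold change was 1.07 (SE 0.29), with an unadjusted p of 0.0049 in the edgeR fit and an adjusted p of 0.158 in DESeq2. It ranged from 0.86 to 1.26 when each library was left out in turn. The highest Zfp36 level, in E4-15 4, and the lowest of its group, in E4-15 1, both came from hindbrain-rich libraries. Within E4-15, Zfp36 rose in the order of library number, which is also the order of the columns and of the titled months. Klf2, Klf4 and Apold1, given below, did not rise in this order. What the order stands for was not tested.

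Klf2, a transcription factor of the vessel lining that responds to flow, was at 10.7, 29.9, 29.9 and 25.4 CPM in E4-15, against 9.77, 11.1, 8.42 and 16.7 CPM in E4-05. The log2 fold change was 1.20 (SE 0.27), with a DESeq2 adjusted p of 0.0241. Its relative Klf4 was at 6.39, 18.6, 11.3 and 12.5 CPM in E4-15, against 7.5, 6.23, 5.41 and 7.83 CPM in E4-05, a log2 fold change of 0.96 (SE 0.24). Both genes repeated the order seen for Zfp36: E4-15 2, 3 and 4 above every E4-05 library and E4-15 1 among them.

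Apold1, an early-response gene of endothelial cells, was at 4.02, 32.1, 18.3 and 16.5 CPM in E4-15, against 3.92, 3.8, 3.98 and 8.47 CPM in E4-05. In the fit Apold1 had a log2 fold change of 1.93 (SE 0.48), the highest among the 50 listed. Ccn1, a secreted matrix protein, was at 4.02, 16, 18.7 and 10.7 CPM in E4-15, against 4.66, 12.2, 3.01 and 7.73 CPM in E4-05, and the 2 groups overlapped. Ccn1 had a log2 fold change of 1.15 (SE 0.36). In the endothelial marker list, 4 of 18 members lay above 0 and 14 below, with a median of -0.07, and the list mean ran from 4.89 to 5.04 log2 CPM in E4-15 and from 4.95 to 5.15 log2 CPM in E4-05.

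Genes of inflammatory and stress signalling gave smaller differences. Nfkbia, the inhibitor that holds NF-κB in the cytoplasm, was at 17, 32, 25.5 and 28.4 CPM in E4-15, against 16.7, 16.9, 19.4 and 19.6 CPM in E4-05, a log2 fold change of 0.53 (SE 0.18). Cebpb, a transcription factor induced by cytokines, was at 5.01, 9.23, 8.19 and 7.33 CPM in E4-15, against 4.25, 8.11, 3.91 and 4.63 CPM in E4-05, with overlap and a log2 fold change of 0.63 (SE 0.24). Per1, which is both an early-response and a clock gene, was at 52.1, 156, 92.1 and 69.7 CPM in E4-15, against 65.1, 68.6, 48.3 and 61.4 CPM in E4-05. Its log2 fold change of 0.71 (SE 0.19) was 0.42 without E4-15 2, its highest library.

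Fos and Arc, much used as marks of neuronal firing, overlapped between the groups. Of the 25 neuronal activity genes, 19 lay above 0 and 6 below, with a median of 0.30, and 1 was higher at an unadjusted p under 0.05 (Fosb, 0.96, SE 0.41). Their median was -0.05 in a fit without the hindbrain term and 0.10 without E4-15 2. Without E4-05 2 it was 0.52, and 8 of the 25 were then higher at that threshold. In the same fit 2204 of all genes were at that threshold in either direction, against 856 in the main fit. Fos, the prototype of the group, was at 13.1, 38.8, 29.3 and 15.4 CPM in E4-15, against 15.5, 45.1, 26.8 and 35 CPM in E4-05. Arc, which acts at synapses, was at 32.2, 175, 102 and 32.4 CPM in E4-15, against 58.8, 289, 31.6 and 117 CPM in E4-05. The log2 fold changes were -0.27 (SE 0.33) for Fos and -0.10 (SE 0.44) for Arc. Markers of cortical excitatory neurons moved with this list: 12 of 14 lay above 0, with a median of 0.62, a mean of 4.13 to 7.20 log2 CPM in E4-15 and of 4.58 to 7.36 log2 CPM in E4-05. That median was 0.12 without the hindbrain term, 0.29 without E4-15 4 and 0.38 without E4-05 4. It was 1.05 without E4-05 2, the fit with 2204 genes at an unadjusted p under 0.05, and 7 of 14 were higher there. The part of these markers in the result was not tested.

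**Figure D2:**
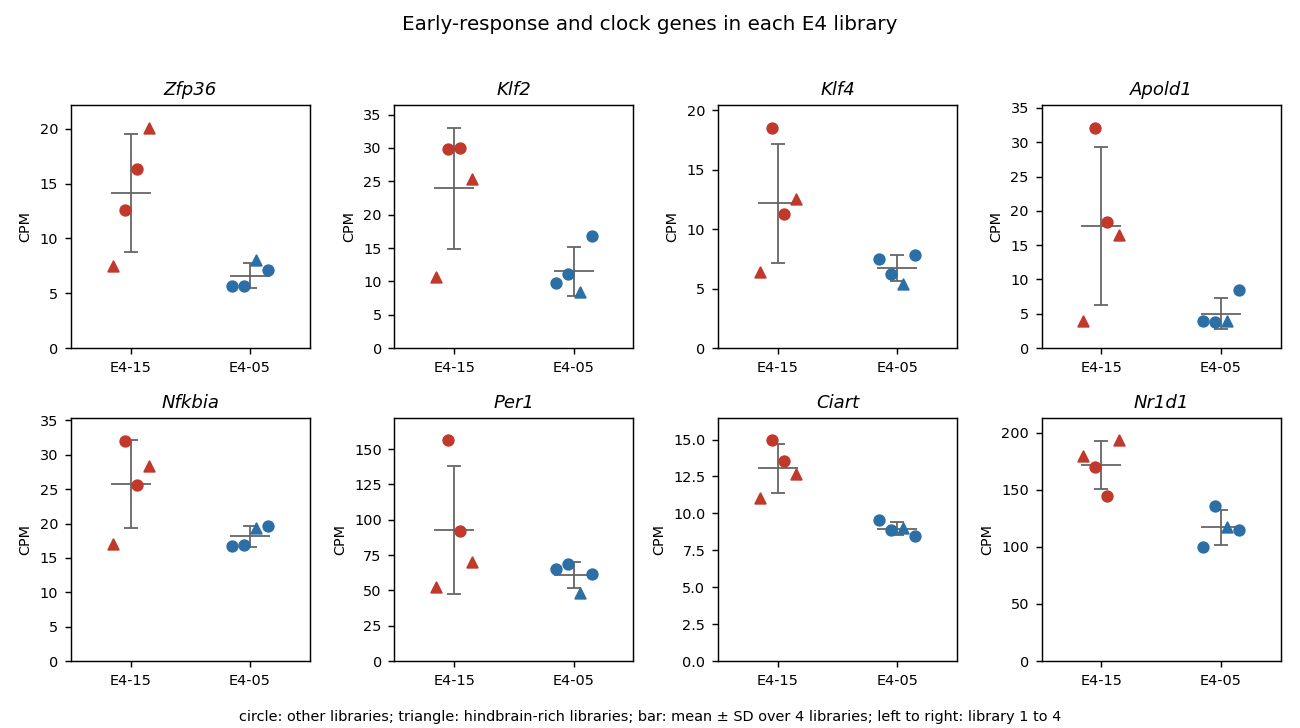
CPM (vertical) of 6 early-response genes and 2 further clock genes in each library, E4-15 left and E4-05 right, with bars for the mean ± SD of 4 libraries and triangles for hindbrain-rich libraries. E4-15 1 is the lowest E4-15 library for the first 6 genes (Zfp36 at 7.53 CPM), while Ciart and Nr1d1 lie above every E4-05 library in all 4 E4-15 libraries. The share of all genes separated in this way was not counted.

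The machinery around tristetraprolin split in direction. Of 33 mRNA decay genes tested, 20 lay above 0 and 13 below, with a median of 0.05, and 3 were higher and 3 lower at an unadjusted p under 0.05, beside 49.5% of all genes above 0, 2.2% higher and 2.44% lower. Zfp36 was among the 3 higher. Cnot3, a subunit of the CCR4-NOT deadenylase that tristetraprolin recruits, was at 60.8, 49.3, 47.7 and 66 CPM in E4-15, against 38.3, 43.2, 47.7 and 36.4 CPM in E4-05, a log2 fold change of 0.34 (SE 0.08). Tob1, an adaptor of the same deadenylase, was at 67, 38.9, 37.9 and 51.1 CPM in E4-15, against 47.3, 56.5, 78.5 and 54.9 CPM in E4-05, a log2 fold change of -0.45 (SE 0.10). The paralogue Zfp36l1 had a log2 fold change of -0.27 (SE 0.08), opposite in sign to Zfp36, and Zfp36l2 one of -0.15 (SE 0.10). Of 20 listed transcripts known as targets of tristetraprolin, 10 passed the filter on low counts, with 4 above 0, 6 below and a median of -0.04. Tnf, Il1b, Il6 and Cxcl2 were among those that did not pass the filter.

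Glucocorticoid target genes gave no common direction. Of 24 tested, 16 lay above 0 and 8 below, with a median of 0.08, 3 higher and 2 lower at an unadjusted p under 0.05, beside 2.2% and 2.44% of all genes. The median ran from -0.01 to 0.20 when each library was left out, with 12 above 0 and 12 below without E4-05 1 or without E4-15 2. Sgk1, a kinase induced by the stress hormone receptor, was at 55.6, 153, 78.5 and 88.3 CPM in E4-15, against 51.2, 66.7, 65.3 and 77.5 CPM in E4-05, a log2 fold change of 0.58 (SE 0.26). Pdk4, a mitochondrial kinase that limits glucose use, was at 6.76, 9.92, 8.16 and 6.07 CPM in E4-15, against 9.42, 13.4, 12.2 and 9.87 CPM in E4-05, a log2 fold change of -0.51 (SE 0.18).

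Among clock genes, the repressors Ciart and Nr1d1 had the smallest p. Of 24 tested, 16 lay above 0 and 8 below with a median of 0.09, and 8 were higher and 0 lower at an unadjusted p under 0.05, beside 2.2% and 2.44% of all genes. Ciart, a repressor of CLOCK and BMAL1 whose promoter is printed above, was at 11, 14.9, 13.5 and 12.7 CPM in E4-15, against 9.53, 8.87, 9 and 8.49 CPM in E4-05. The groups did not overlap, and the log2 fold change was 0.57 (SE 0.11), with a DESeq2 adjusted p of 0.0241. Nr1d1, which encodes the repressor REV-ERBα, was at 180, 170, 144 and 193 CPM in E4-15, against 99.4, 136, 118 and 115 CPM in E4-05. Again the groups did not overlap, and the log2 fold change was 0.51 (SE 0.12). The share of all genes without overlap was not counted, so these separations are descriptive only. Dbp, a clock output factor, had a log2 fold change of 0.39 (SE 0.16) and Per2 one of 0.23 (SE 0.23). The count of 8 was 3 without E4-05 3 and 4 without E4-15 2 or without E4-15 4. Over all genes, 451, 570 and 399 were at that threshold in these 3 fits, against 856 in the main fit. Without both E4-05 1 and E4-05 3, 12 clock genes lay above 0 and 12 below, with a median of -0.002. In that fit 3 clock genes were higher and 2 lower, and 801 of all genes were at that threshold in either direction. No label gives the time of day of sampling.

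Slc18a2 and Lmx1b, genes of monoamine neurons, were lower in E4-15 by DESeq2 but not by edgeR. Slc18a2, the transporter that loads dopamine, noradrenaline and serotonin into vesicles, was at 14, 7.08, 8.95 and 15.2 CPM in E4-15, against 17.5, 14.8, 31.9 and 26.7 CPM in E4-05. In libraries that were not hindbrain-rich it was at 7.08 and 8.95 CPM in E4-15, against 14.8 to 26.7 CPM in E4-05. Its log2 fold change of -1.24 (SE 0.19) had the smallest p of all genes, with a DESeq2 adjusted p of 1.49e-05, and it ranged from -1.34 to -1.07 when each library was left out in turn. Lmx1b, a transcription factor that serotonin neurons and midbrain dopamine neurons depend on, was at 2.08, 0.347, 0.443 and 2.73 CPM in E4-15, against 1.3, 0.866, 6.34 and 2.2 CPM in E4-05, a log2 fold change of -1.67 (SE 0.33). Lmx1b was lower in E4-15 both among the hindbrain-rich libraries, where E4-05 had only E4-05 3, and among the others.

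Other genes of serotonin and catecholamine neurons, chosen after their values were seen, overlapped between the groups, as Slc18a2 and Lmx1b did. Tph2, the enzyme that starts serotonin synthesis in neurons, was at 6.35, 0.999, 1.52 and 4.6 CPM in E4-15, against 2.38, 1.63, 32.8 and 3.12 CPM in E4-05, a log2 fold change of -1.63 (SE 0.36). Like Lmx1b, Tph2 was lower in E4-15 both among the hindbrain-rich libraries, where E4-05 had only E4-05 3, and among the others. Tph2 varied widely among hindbrain-rich libraries of other groups. It was at 6.3 CPM in E3-05 2, 38.4 CPM in E3-10 1, 30.1 CPM in E4-10 2, 6.8 CPM in E3-10 4 and 23.8 CPM in E3-15 3. Slc6a4, the serotonin transporter, was at 4.48, 0.13, 0.0984 and 2.29 CPM in E4-15, against 1.12, 0.0423, 24.1 and 2.57 CPM in E4-05, a log2 fold change of -3.05 (SE 0.82). For both genes E4-05 3, the hindbrain-rich library of its group, held the highest level of the 8 libraries. Th, the enzyme of catecholamine synthesis, was at 14.5, 6.47, 9.32 and 20.4 CPM in E4-15, against 15.4, 9.8, 17.5 and 22.1 CPM in E4-05, a log2 fold change of -0.65 (SE 0.31). How much brainstem each dissection held was not tested.

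**Figure D3:**
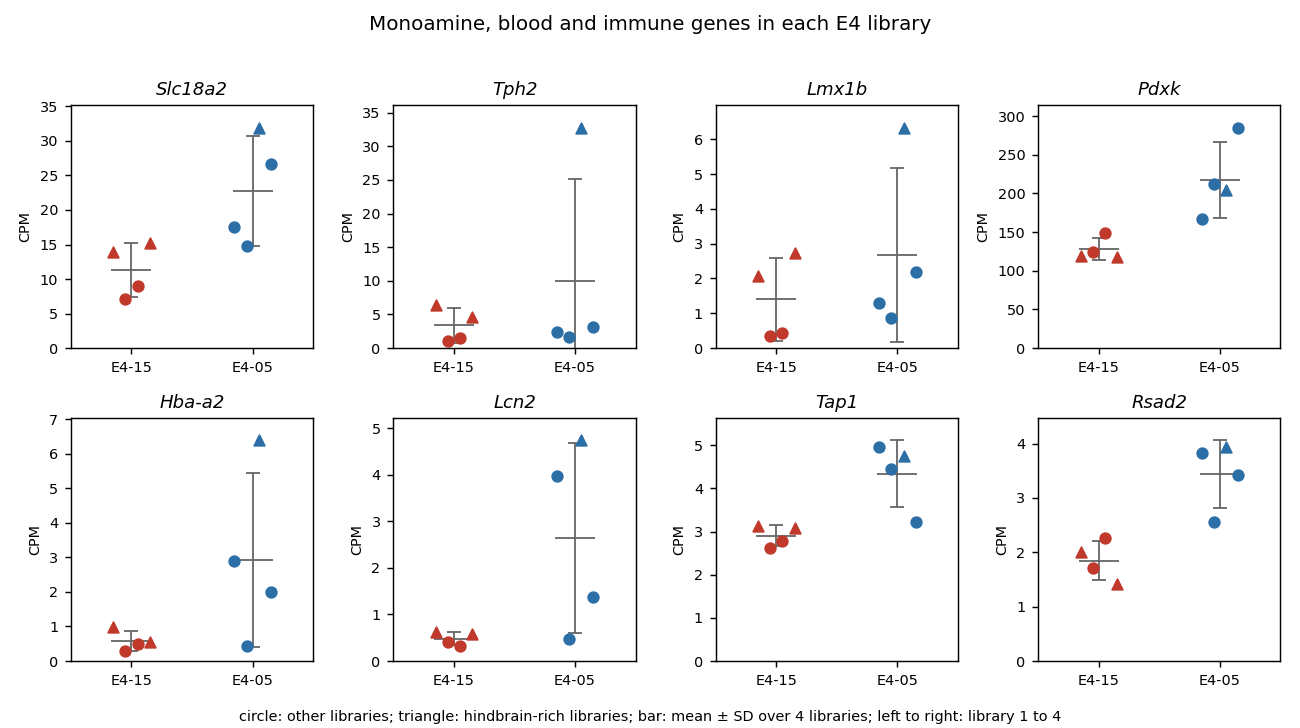
CPM (vertical) of 8 genes in each library, E4-15 left and E4-05 right, with bars for the mean ± SD of 4 libraries and triangles for hindbrain-rich libraries. Tph2 reaches 32.8 CPM in 1 E4-05 library, and E4-05 1 and E4-05 3 hold the most Hba-a2 and Lcn2. Pdxk, Tap1 and Rsad2, chosen by small p, do not overlap between the groups, and the share of all genes without overlap was not counted.

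Globin genes were high in E4-05 1 and E4-05 3, and neutrophil markers in E4-05 3. All 10 blood genes tested lay below 0, with a median of -2.52, and 7 were lower at an unadjusted p under 0.05, beside 2.44% of all genes. Hba-a2, an alpha globin, was at 0.971, 0.282, 0.492 and 0.558 CPM in E4-15, against 2.88, 0.444, 6.38 and 1.98 CPM in E4-05, a log2 fold change of -2.56 (SE 0.55) that rested on 13 to 50 counts per library in E4-15 and 21 to 276 counts in E4-05. S100a8, a neutrophil protein, was at 0.951, 0.0651, 0.0984 and 0.438 CPM in E4-15, against 0.374, 0.0845, 5.55 and 0.37 CPM in E4-05, where only E4-05 3 was high. Lcn2, which neutrophils and reactive astrocytes make, was at 0.621, 0.413, 0.32 and 0.578 CPM in E4-15, against 3.98, 0.465, 4.74 and 1.38 CPM in E4-05, a log2 fold change of -2.64 (SE 0.60). The blood list averaged -0.99 to 1.14 log2 CPM in E4-15 and -0.88 to 3.39 log2 CPM in E4-05. Without E4-05 1 and E4-05 3 its median was -1.09, with 3 of 10 genes above 0 and 7 below. In that fit 1 blood gene was higher and 1 lower at an unadjusted p under 0.05.

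Immune and glial reaction genes leaned the same way as the blood markers. Over all genes, 50.5% lay below 0 and 2.44% were lower at an unadjusted p under 0.05. Of 27 interferon response genes, 2 lay above 0 and 25 below, with a median of -0.23 and 3 lower at that threshold. Of 16 antigen presentation genes, 1 lay above 0 and 15 below, with a median of -0.47 and 5 lower. Of 22 reactive astrocyte genes all lay below 0, with a median of -0.25 and 4 lower. Of 20 complement genes 16 lay below 0, with a median of -0.11 and 3 lower, and of 26 disease-associated microglia genes 20 lay below 0, with a median of -0.09 and 4 lower. No member of these 5 lists was higher at that threshold.

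These medians were nearer 0 without E4-05 1 and E4-05 3, the libraries richest in Hba-a2: -0.13 for interferon response, with 10 of 28 above 0 and 1 member higher at an unadjusted p under 0.05, -0.02 for antigen presentation, -0.12 for reactive astrocytes, 0.04 for complement and -0.04 for disease-associated microglia. E4-05 3 was also the only hindbrain-rich library of E4-05, so blood content and region cannot be told apart in this change. Leaving out E4-05 1 alone gave -0.15 for antigen presentation. The named members of these lists lay between -1.31 (Lcn2) and 0.06 (Lyz2, -0.57 with all 8 libraries) without these libraries, among them H2-K1 at -0.22, against -0.49 with all 8, and C4b at -0.17, against -0.42. Rsad2, the antiviral protein viperin, was at 2, 1.72, 2.26 and 1.41 CPM in E4-15, against 3.83, 2.56, 3.93 and 3.41 CPM in E4-05. The groups did not overlap, though the share of all genes without overlap was not counted. The log2 fold change of -0.90 (SE 0.23) was -0.59 without the 2 libraries. Tap1, which carries peptides to class I molecules, was at 3.13, 2.63, 2.78 and 3.09 CPM in E4-15, against 4.95, 4.44, 4.74 and 3.23 CPM in E4-05. Its log2 fold change of -0.63 (SE 0.17) was -0.51 without them. Ifi47, an interferon-induced GTPase, was at 0.893, 0.76, 0.959 and 1.14 CPM in E4-15, against 1.76, 1.48, 2.24 and 1.72 CPM in E4-05, with a log2 fold change of -1.02 (SE 0.22) that was -0.90 without them.

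Clec7a, a receptor that marks reactive microglia, was at 0.505, 0.391, 0.689 and 0.418 CPM in E4-15, against 1.28, 0.718, 1.13 and 0.953 CPM in E4-05, a log2 fold change of -1.03 (SE 0.32) that was -0.63 without E4-05 1 and E4-05 3. The homeostatic microglia list was split, with 7 of 19 above 0, 12 below and a median of -0.02. Its mean was 3.39 to 4.71 log2 CPM in E4-15 and 3.62 to 4.73 log2 CPM in E4-05, lowest in the hindbrain-rich libraries of both groups.

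Several genes outside these groups, named because their p was among the smallest, did not overlap between E4-15 and E4-05. Choice by small p favours such separation, also for Ciart, Nr1d1, Rsad2 and Tap1 above. The share of all genes without overlap was not counted, so the separation is descriptive only. Pdxk, which makes the active form of vitamin B6, was at 120, 125, 149 and 118 CPM in E4-15, against 167, 213, 204 and 285 CPM in E4-05, a log2 fold change of -0.73 (SE 0.16) with a DESeq2 adjusted p of 0.0257. Tent5c, a poly(A) polymerase, was at 1.98, 3.06, 2.63 and 2.87 CPM in E4-15, against 5.02, 4.54, 5.55 and 4.39 CPM in E4-05, a log2 fold change of -0.89 (SE 0.18). Crmp1, a protein of growing axons, was at 213, 220, 213 and 228 CPM in E4-15, against 169, 191, 149 and 153 CPM in E4-05, a log2 fold change of 0.42 (SE 0.09). The gene listed as TrnH was at 5.2, 5.45, 6.29 and 5.34 CPM in E4-15, against 2.93, 4.29, 2.5 and 2.67 CPM in E4-05. Gm2026 had 18, 66, 18 and 12 counts in E4-15, against 3 counts in each E4-05 library, too few for a stable fold. Mir682 was at 0.563, 0.347, 0.467 and 0.697 CPM in E4-15, against 1.25, 0.761, 1.71 and 1.35 CPM in E4-05.

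The genes named in the series title gave small differences. Of the 10 title genes, 7 lay above 0 and 3 below, with a median of 0.04 and none at an unadjusted p under 0.05. Apoe, the lipid carrier, had a log2 fold change of 0.03 (SE 0.08). Asxl1, a chromatin regulator, had one of 0.03 (SE 0.07), and both turned negative without the hindbrain term, at -0.03 for Apoe and -0.00030 for Asxl1. Nr1h3, the liver X receptor alpha, was at 7.53, 3.26, 3.47 and 6.61 CPM in E4-15, against 2.75, 3.04, 6.2 and 2.8 CPM in E4-05, higher in the hindbrain-rich libraries than in the others, with a log2 fold change of 0.21 (SE 0.13). Over all genes, 49.5% lay above 0 and 2.2% were higher at an unadjusted p under 0.05. Of 29 Asxl and histone H3 lysine K4 methylation genes, 24 lay above 0 and 5 below, with a median of 0.08 and 1 higher at that threshold (Setd1b, a K4 methyltransferase, 0.18, SE 0.07). Of 24 LXR and Apoe target genes, 15 lay above 0 with a median of 0.04, and of 24 cholesterol synthesis genes 18 lay above 0 with a median of 0.07. Hmgcs1, an early enzyme of that pathway, had a log2 fold change of 0.23 (SE 0.10), the only one of these 24 higher at an unadjusted p under 0.05.

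**Figure D4:**
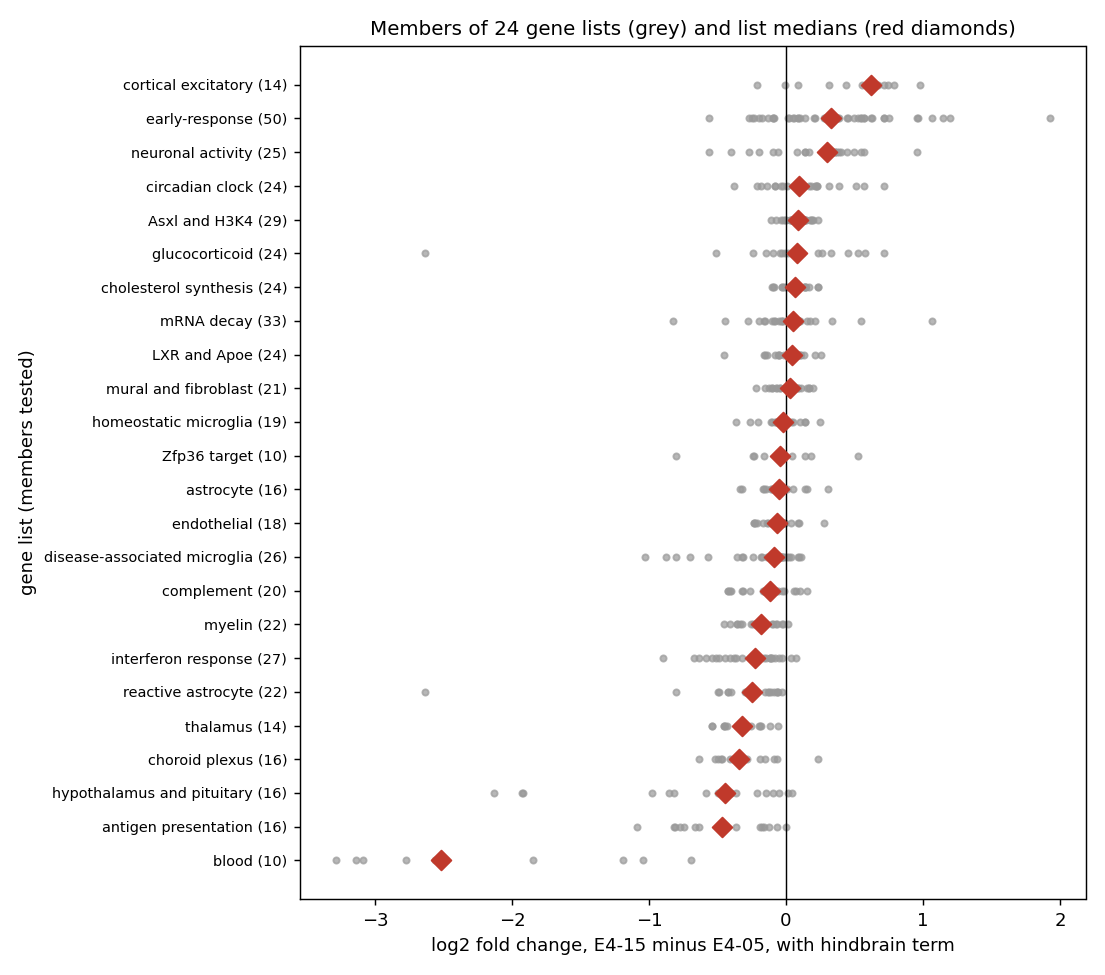
Log2 fold change of E4-15 minus E4-05 (horizontal) for the tested members of 24 gene lists (grey points, number tested in brackets) with the list median as a red diamond. Medians run from -2.52 for blood to 0.62 for cortical excitatory genes, whose median is 0.12 without the hindbrain term.

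Region and cell type lists also differed between the 2 groups, beyond the hindbrain term. All 14 thalamus genes lay below 0, with a median of -0.32, which was 0.22 without E4-05 4. The thalamus mean was 6.81 log2 CPM in E4-05 4, against 4.43 to 5.58 log2 CPM in the other 7 libraries. Of 16 choroid plexus genes 15 lay below 0, with a median of -0.34 that was 0.16 without E4-05 3, and of 22 myelin genes 21 lay below 0, with a median of -0.18 that was 0.01 without E4-05 4. Of 16 hypothalamus and pituitary genes 14 lay below 0, with a median of -0.45 that was 0.03 without E4-05 1, with 10 of 16 above 0, and 0.37 without E4-05 1 and E4-05 3. Gh, the pituitary growth hormone, was at 19.5, 2.24, 3.1 and 3.63 CPM in E4-15, against 2.31, 15.8, 61.3 and 12.6 CPM in E4-05. Of 16 astrocyte genes 5 lay above 0 with a median of -0.05, and of 21 mural and fibroblast genes 11 lay above 0 with a median of 0.03. None of the thalamus, choroid plexus, myelin, cortical or mural genes had an unadjusted p under 0.05.

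The middle time code placed the early-response genes in different ways. Zfp36 was at 5.68, 5.68, 8.03 and 7.09 CPM in E4-05, at 8.03, 8.62, 10.1 and 7.89 CPM in E4-10 and at 7.53, 12.6, 16.4 and 20.1 CPM in E4-15. Its log2 fold change was 0.39 (SE 0.24) for E4-10 minus E4-05 and 0.69 (SE 0.24) for E4-15 minus E4-10. Klf2 was at 26.1, 21.4, 24.7 and 11.8 CPM in E4-10, and its log2 fold change was 0.91 (SE 0.30) for E4-10 minus E4-05 and 0.25 (SE 0.29) for E4-15 minus E4-10. Klf4 gave 0.75 (SE 0.29) and 0.16 (SE 0.29) for the same pair of steps, and Apold1 gave 0.77 (SE 0.47) and 1.09 (SE 0.47). The steps share the E4-10 libraries. No gene passed in either one, with 1006 of 20437 genes at an unadjusted p under 0.05 for E4-10 minus E4-05 (4.92%) and 1191 for E4-15 minus E4-10 (5.83%).

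**Figure D5:**
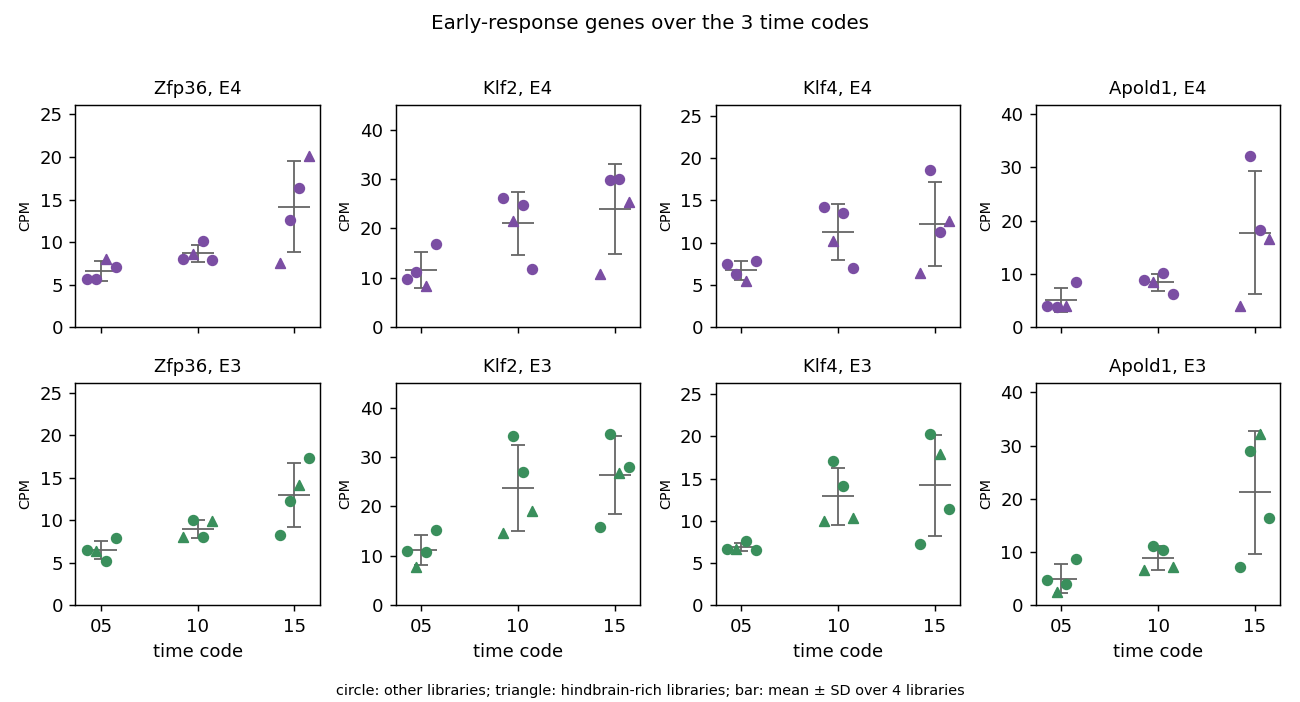
CPM (vertical) of Zfp36, Klf2, Klf4 and Apold1 at time codes 05, 10 and 15 (horizontal) in E4 libraries (top) and E3 libraries (bottom), with bars for the mean ± SD of 4 libraries and triangles for hindbrain-rich libraries. In both E codes library 1 of time code 15 lies lowest in its group for all 4 genes, at 7.53 CPM of Zfp36 in E4-15 1 and 8.27 CPM in E3-15 1.

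The E3 libraries, which share no library with E4, gave the following values for the early-response genes. Zfp36 was at 8.27, 12.3, 14.1 and 17.3 CPM in E3-15, against 6.45, 6.4, 5.25 and 7.86 CPM in E3-05, a log2 fold change of 1.00 (SE 0.24). In E3-15, as in E4-15, Zfp36 rose in the order of library number. The difference of the differences, E4 minus E3, was 0.09 (SE 0.33). It was -0.12 (SE 0.41) for Klf2, -0.15 (SE 0.41) for Klf4 and -0.35 (SE 0.66) for Apold1. As a list, 31 of 50 early-response genes lay above 0 in E3, beside 51.9% of all genes, with a median of 0.12, 7 higher and 2 lower at an unadjusted p under 0.05, beside 1.12% and 1.61% of all genes. None of the 50 differed between the E codes at an unadjusted p under 0.05, beside 2.75% of all genes.

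For other genes and lists the values in E3 stood as follows, and no gene differed between the E codes after adjustment. Slc18a2 was at 32.7, 13.8, 37.6 and 6.88 CPM in E3-15, against 8.14, 14.7, 18.9 and 21.3 CPM in E3-05, a log2 fold change of 0.39 (SE 0.49). Its difference between the E codes was -1.67 (SE 0.69), with an edgeR adjusted p of 0.994. Cnot3 had a log2 fold change of -0.17 (SE 0.13) in E3 and a difference between the E codes of 0.52 (SE 0.18), also at an adjusted p of 0.994. For Lmx1b the difference between the E codes ran from -2.43 to -1.52 when each library compared was left out in turn. The blood list lay below 0 for all 10 genes in E3 as in E4, with a median of -1.67, and antigen presentation for 15 of 16, with a median of -0.29. The thalamus median was 0.30 in E3 with 12 of 14 above 0, the myelin median 0.29 with 22 of 22 and the choroid plexus median 0.31 with 16 of 16, each opposite in sign to E4. The Asxl and H3K4 list had 10 above 0 and 19 below in E3, with a median of -0.03. Of the title genes 1 lay above 0 and 9 below, with a median of -0.07. LXR and Apoe targets had 7 above and 17 below, and cholesterol synthesis 22 above and 2 below. Clock genes had 18 above and 6 below in E3, with a median of 0.06. Of these, 1 was higher and 0 lower at an unadjusted p under 0.05, beside 1.12% and 1.61% of all genes. Over all genes, 0 of 20437 differed between the E codes in edgeR, DESeq2 or limma-voom, with 563 (2.75%), 640 (3.13%) and 554 (2.71%) at an unadjusted p under 0.05.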

How the data were processed

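The authors deposited whole-number counts per gene symbol, 40836 genes by 24 libraries, with no normalization. Per the submitters' processing notes, HISAT2 2.1.0, featureCounts 2.0.6 and mm39 were used; annotation and strandedness are not given in the sources used here, so overlapping and antisense genes cannot be told apart. Per the labels, libraries were made with a NEBNext Ultra kit and sequenced on a NovaSeq. Columns were joined to libraries by the number in each label. Among deposited counts of 1 to 19, 68.2% to 70.8% per library were even, so counts overstate fragments. Depth was 37.4 M to 49.7 M counts. Genes were kept by filterByExpr over the 8 libraries (18451). The fit used edgeR 4.0.16 in R 4.3.3 with TMM factors, a group and a hindbrain term, and quasi-likelihood tests with 5 residual degrees of freedom, adjusted by Benjamini-Hochberg over all genes at 0.05. Contrasts with E4-10 and E3 came from 1 fit to all 24 libraries with 17 residual degrees of freedom (20437 genes). CPM use the TMM factors of all 24 libraries, and list means are of log2 CPM with a prior count of 2. The scripts were tested on simulated data. The members and the lists were chosen with earlier results of these data known. The 88 genes named by rule are the 6 with the smallest p in each direction, Zfp36, the title genes, 8 early-response genes and up to 3 of each described list; other genes (Tph2, Slc6a4, Th, Fos, Arc, Sgk1, Pdk4, Dbp, Per2, Zfp36l1, Zfp36l2, 9030025P20Rik) were chosen after their values were seen. Promoters matched for 71 of the 88. Alternatives were RLE and upper-quartile factors, other filters, DESeq2 1.42.0, limma-voom 3.58.1, other region terms, a replicate block and leaving out each library; leaving out both E4-05 libraries richest in Hba-a2 was added after the data were seen.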

Additional observations from a re-analysis of the deposited data

Results flagged for a closer look

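In 14 of the 224 groups of 4 libraries checked, 1 library stood apart by a gap ratio (its gap to the nearest library over the range of the group) above Dixon's critical value at 95%; chance flags about 1 in 20 groups. No explanation was tested. In E4-15, library 1 was high for Gh at 19.5 CPM (ratio 0.920) and low for Ncor1 at 258 CPM (0.925) and for the mean of the LXR and Apoe list at 5.51 log2 CPM (0.835). Library 2 was low for Cldn5 at 28.3 CPM (0.834) and Ifitm3 at 4.39 CPM (0.880) and high for Gm2026 at 1.43 CPM (0.830). In E4-05, library 3, hindbrain-rich, was high for Clic6 at 80.6 CPM (0.881), Nr1h3 at 6.2 CPM (0.915), Pcdhgb2 at 9.9 CPM (0.902), S100a8 at 5.55 CPM (0.947) and Setd1a at 79.9 CPM (0.944), and low for C1qa at 24.4 CPM (0.830). Library 4 of E4-05 was high for Apold1 at 8.47 CPM (0.962) and Slc17a6 at 356 CPM (0.896).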

How the results depend on the processing

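Of 88 named genes, 66 kept their direction and their side of the threshold under every alternative run. None passed in the main fit and only DESeq2 called any gene, so the side of the threshold changed in DESeq2 alone. It says little about how stable the differences are. A further 11 turned sign in at least 1 alternative, and 11 passed in DESeq2 only, which gave 4 genes higher and 9 lower. Every other alternative called 0 genes between E4-15 and E4-05, the replicate block included; genes at an unadjusted p under 0.05 numbered 551 with the block, 344 without the hindbrain term, 303 in the 5 libraries not hindbrain-rich, and 399 (without E4-15 4) to 2204 (without E4-05 2) when each library was left out. After removal of the group and hindbrain terms, E4-15 and E4-05 libraries sharing a number correlated at -0.14 to 0.45 (median 0.13). The other pairs correlated at -0.54 to 0.44 (median -0.075). The numbers were not taken to pair libraries, although 4 pairs are too few to exclude pairing. Pairing of E3 with E4 libraries was not checked. Without the hindbrain term, log2 fold changes turned to 0.032 for Abca1, -0.030 for Apoe, -0.00030 for Asxl1, -0.0061 for Cspg4, -0.023 for Fcrls and -0.10 for Selplg, and list medians moved to 0.08 for mRNA decay, -0.19 for disease-associated microglia, -0.23 for homeostatic microglia and 0.15 for Asxl and H3K4. In libraries not hindbrain-rich, Asxl1 turned to -0.0051, Clic6 to 0.21 and Trpv4 to 0.16, and the difference between E codes to 0.63 for Apold1, 0.17 for Klf2, 0.16 for Klf4 and 0.070 for Lcn2. Without both E4-05 libraries richest in Hba-a2, Clic6 turned to 0.082 and Lyz2 to 0.056, and medians moved to 0.14 for Zfp36 targets, -0.021 for antigen presentation, 0.042 for complement and -1.09 for blood. That fit also lacked the only hindbrain-rich library of E4-05. Over fits leaving out each library in turn, values ran from -0.013 to 0.064 for Abcg1, -0.012 to 0.078 for Apoe, -0.00034 to 0.078 for Asxl1, -0.63 to 0.21 for Clic6, -0.0054 to 0.29 for Col4a2, -0.028 to 0.16 for Cspg4 and -0.83 to 0.17 for Trpv4; for the difference between E codes from -0.71 to 0.19 for Apold1, -0.32 to 0.078 for Klf2, -0.40 to 0.14 for Klf4, -0.72 to 0.22 for Lcn2 and -0.13 to 0.29 for Zfp36; and for list medians from -0.60 to -0.15 for antigen presentation and -0.18 to 0.085 for mural and fibroblast genes. The cause of these changes was not tested.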
